A study of Mus musculus with 6 samples.

Results

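A group of 10 genes of mesenchymal cells and of the transforming growth factor beta (TGF-beta) pathway is described here in newborn mouse lenses that lack Hsf4, set against wild-type lenses. They are Ccn1, Ccn2, Twist1, Snai1, Snai2, Acta2, Fn1, Tgfb1, Tgfb2 and Tgfbi, which were chosen by name, with results of this same comparison already known. All 10 were measured, through 18 probe sets that the platform's annotation gives to a single gene, out of 12393 genes and 22626 probe sets tested. A probe set is a group of short oligonucleotides against one transcript, and 5 of the 10 genes had 1 probe set only. The Hsf4-null and the wild-type group each held 3 Affymetrix arrays of whole lenses from newborn mice of the ICR strain, with no treatment in either group. Every array was made from 50 ng of total RNA after amplification, and the methods call the arrays biological triplicates. The knockout allele, whether the wild-type mice were littermates, and how many lenses made a sample are not stated in the labels or methods read here. Hsf4 itself lay at log2 intensities of 4.26, 4.09 and 3.78 in Hsf4-null lenses and at 9.09, 9.39 and 9.56 in wild-type lenses, as the labels have it, although it is not known whether the deletion takes in this probe set.

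Hsf4 is a heat shock transcription factor that acts in the lens in the terminal differentiation of fiber cells. The lens is built of a front layer of epithelial cells and of the fibers they become, inside a capsule, and in the newborn a network of fetal vessels with its pericytes and macrophages still lies on that capsule. TGF-beta ligands bind pairs of serine and threonine kinase receptors, which phosphorylate Smad proteins that then enter the nucleus. In lens epithelium an excess of active TGF-beta is known to turn cells into spindle-shaped, contractile myofibroblasts, an epithelial-mesenchymal transition (EMT) that is seen in anterior subcapsular cataract. Twist1, Snai1 and Snai2 are transcription factors of that transition, and Acta2, Fn1 and Tgfbi encode proteins that are used to mark it. Ccn1 and Ccn2 are matrix-bound signaling proteins that respond to TGF-beta and, through YAP and TEAD factors, to mechanical tension.

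The members that stood apart between the genotypes were Ccn1, Twist1 and Tgfbi, all at higher levels in the Hsf4-null lenses. The TGF-beta ligand Tgfb2 had nearly the same level in both. Tgfb1, the other ligand, gave overlapping groups but lay below the median of all probe sets. Calls were made with limma, which fits a linear model to each probe set and steadies its variance with that of the others, at a Benjamini-Hochberg adjusted p under 0.05 over all probe sets. Of the 18 probe sets of these genes, 3 were past that threshold and higher in Hsf4-null lenses, 0 were past it and lower, and 15 were not past it. Among all probe sets 2.66% were past it in either direction, 0.72% higher and 1.94% lower. Because the genes were proposed from this contrast, their values are given as a description with no test, and nothing is read from that share. In 8 of the 18 probe sets every Hsf4-null array lay above every wild-type array, in 0 every one lay below, and in 10 the groups overlapped. Over all probe sets, 9.37% had every Hsf4-null array above and 11.7% every one below. With each gene taken by its probe set of highest mean, 6 of the 10 genes had every Hsf4-null array above, where 10.1% of all genes had. The median log2 difference, Hsf4-null minus wild-type, was 0.33 over the 18 probe sets and 0.00 over all probe sets. In whole lenses, a different number of cells of a type and a different amount of RNA in each of them cannot be told apart.

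**Figure D1:**
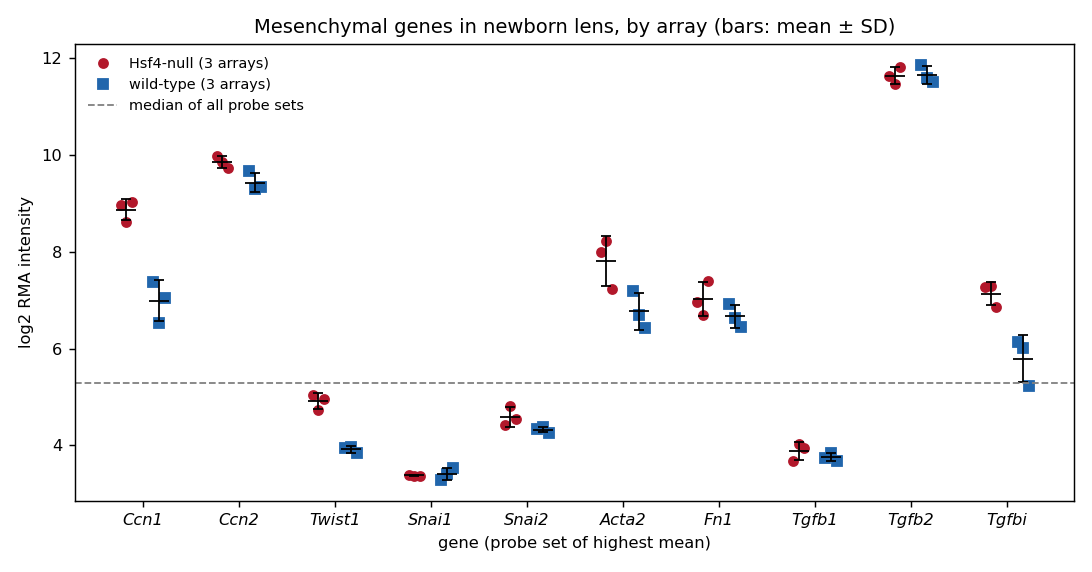
Log2 RMA intensity (vertical axis) of the 10 genes, 1 probe set per gene, on each of the 3 Hsf4-null arrays (red circles) and the 3 wild-type arrays (blue squares), with mean ± SD bars and a dashed line at the median of all probe-set means, 5.30. Ccn1, Twist1 and Tgfbi show the wide gaps between the genotypes, and the 2 sets of points of Tgfb2 lie at the same height.

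The upstream sequences of the 3 genes past the threshold are shown with that of Tgfb2, whose level did not move, so that the letters near their start sites can be read side by side. They are the RefSeq promoter windows of GRCm38.p6, 300 bases around the start site, written 5′ to 3′ on the strand of the gene. Windows for 7 of the 10 genes were matched, and Ccn2, Snai2 and Fn1 were not. The Ccn1 window lies at chr3:145649936-145650235 on the minus strand, Twist1 at chr12:33957421-33957720 on the plus strand, Tgfbi at chr13:56609336-56609635 on the plus strand and Tgfb2 at chr1:186705940-186706239 on the minus strand. The Tgfb2 window lies wholly inside the span given for that gene, 186622787 to 186709697, and not at its 5′ end. Positions for Tgfb2 are therefore counted from a start site within that span. Capitals mark every match, on either strand, to TTCNNGAA or GAANNTTC (a pair of inverted units of the heat shock element), CATTCC (TEAD factors), CAGAC (the Smad box), TGANTCA (AP-1), TGACGTCA (CREB), CACCTG (Snail and Zeb factors), TATAAA and the CArG box of SRF.
Ccn1: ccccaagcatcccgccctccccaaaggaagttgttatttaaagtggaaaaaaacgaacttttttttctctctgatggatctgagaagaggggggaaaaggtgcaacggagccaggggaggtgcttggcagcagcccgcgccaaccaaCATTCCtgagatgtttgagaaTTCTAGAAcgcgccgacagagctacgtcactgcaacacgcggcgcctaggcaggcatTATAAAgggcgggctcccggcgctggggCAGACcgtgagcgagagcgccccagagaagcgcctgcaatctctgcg
Twist1: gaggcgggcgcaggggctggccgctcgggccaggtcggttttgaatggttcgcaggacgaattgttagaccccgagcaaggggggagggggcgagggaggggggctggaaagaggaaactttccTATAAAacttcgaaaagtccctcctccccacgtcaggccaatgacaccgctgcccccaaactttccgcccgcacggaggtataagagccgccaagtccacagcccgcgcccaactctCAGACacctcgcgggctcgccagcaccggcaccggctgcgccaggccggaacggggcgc
Tgfbi: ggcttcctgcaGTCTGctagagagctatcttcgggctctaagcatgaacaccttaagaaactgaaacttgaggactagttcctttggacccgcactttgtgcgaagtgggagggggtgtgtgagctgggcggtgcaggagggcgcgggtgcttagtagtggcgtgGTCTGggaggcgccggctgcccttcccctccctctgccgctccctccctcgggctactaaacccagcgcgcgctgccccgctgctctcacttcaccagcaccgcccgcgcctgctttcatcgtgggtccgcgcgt
Tgfb2: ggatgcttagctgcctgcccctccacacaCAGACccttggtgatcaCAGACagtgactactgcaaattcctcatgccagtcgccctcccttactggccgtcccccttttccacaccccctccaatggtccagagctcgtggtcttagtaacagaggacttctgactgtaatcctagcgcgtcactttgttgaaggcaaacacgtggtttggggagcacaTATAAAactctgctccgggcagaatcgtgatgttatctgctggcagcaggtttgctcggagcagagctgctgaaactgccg
Positions are counted with 1 at the start site and -1 at the base before it, and give the first base of a match. Ccn1 held TTCNNGAA at -82, CATTCC at -103, TATAAA at -25 and CAGAC at 4. Among 32851 promoter windows of the same length, 8.52% held TTCNNGAA, 14.7% CATTCC, 13.6% TATAAA and 49.6% CAGAC. Twist1 held TATAAA at -126 and CAGAC at -9. Tgfbi held CAGAC, on the other strand, at -239 and -85, and Tgfb2 held it at -221 and -204 together with TATAAA at -31. No match overlapped another. The remaining motifs were in 7.86% (GAANNTTC), 7.81% (TGANTCA), 1.79% (TGACGTCA), 20.2% (CACCTG) and 1.63% (CArG box) of the windows and in none of these 4. A match is a run of letters, not a measured binding site.

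Ccn1 (chromosome 3, 145646971 to 145649985 in GRCm38.p6), a secreted, integrin-binding protein of the CCN family formerly called Cyr61, differed most of the 10 genes. Its brighter probe set, 1416039_x_at, had log2 intensities of 8.96, 8.62 and 9.02 in Hsf4-null lenses, against 7.37, 6.54 and 7.05 in wild-type lenses. The lowest Hsf4-null array was 1.24 above the highest wild-type array, a wider gap than the range within either genotype. Means were 8.86 ± 0.22 in Hsf4-null and 6.99 ± 0.42 in wild-type lenses (SD, n = 3 each), a log2 difference of 1.88 with a standard error of 0.22, or 3.68-fold. The suffix x of this probe set means that some of its probes may also bind other transcripts. The other probe set of the gene, 1438133_a_at, read 5.16, 4.34 and 4.56 in Hsf4-null and 3.81, 3.72 and 3.94 in wild-type lenses. Here too the groups did not overlap, but the set lies in the lower part of the scale, and its difference of 0.86 (standard error 0.20) was not past the threshold.

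Ccn2 (chromosome 10, 24595442 to 24598683), connective tissue growth factor, a widely used target of TGF-beta and of YAP, moved far less than Ccn1. Its log2 intensities were 9.97, 9.86 and 9.72 in Hsf4-null lenses and 9.66, 9.29 and 9.33 in wild-type lenses. The groups are separated by no more than 0.06, and the difference of 0.42 (standard error 0.13) was not past the threshold. All 3 other CCN genes that were measured lie below the median of probe-set means. Ccn3, formerly Nov, rose in Hsf4-null lenses, at 4.90, 4.64 and 4.80 against 4.21, 4.16 and 4.06 in wild-type lenses (log2 difference 0.64, standard error 0.11, limma adjusted p = 0.0213). That call was lost without Hsf4-null array 1 or 3 or wild-type array 2 or 3, at differences of 0.58 to 0.65. Ccn5, at a difference of 0.17 (limma adjusted p = 0.525), and Ccn4, at -0.27 (limma adjusted p = 0.419), did not pass. For the 3 genes, the methods' test passed 1 before and 0 after adjustment. Ccn6 was not measured.

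Twist1 (chromosome 12, 33957671 to 33959831), a basic helix-loop-helix transcription factor of mesenchyme, had the tightest replicates of the 3 genes past the threshold. It read 5.05, 4.74 and 4.97 in Hsf4-null lenses, against 3.95, 3.97 and 3.84 in wild-type lenses. The arrays of each genotype lie close together and far from those of the other. The means of 4.92 ± 0.16 and 3.92 ± 0.07 (SD, n = 3 each; Hsf4-null, then wild-type) differ by 0.998 on the log2 scale (standard error 0.11), or 1.997-fold. This probe set lies below the median of all probe-set means, 5.30. The deposited values hold no detection calls, so how much of the low wild-type signal is background is unknown, and the fold with it.

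The Snail factors, zinc finger repressors of E-cadherin, did not follow Twist1. Snai1 (chromosome 2, 167538195 to 167542814) read 3.39, 3.36 and 3.37 in Hsf4-null and 3.28, 3.42 and 3.52 in wild-type lenses, with the Hsf4-null values inside the wild-type range. Its log2 difference was -0.03 (standard error 0.10). These values are near the lowest log2 value of any tested probe set, 2.85, and a low transcript could go unseen there. Snai2 (chromosome 16, 14705852 to 14709395), also known as Slug, read 4.41, 4.81 and 4.55 in Hsf4-null and 4.34, 4.38 and 4.26 in wild-type lenses. The groups are apart by 0.04 only, and the difference of 0.27 (standard error 0.12) was not past the threshold.

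A wider list of EMT transcription factors, without these members, had 10 measured genes, and limma called 0 of them, with 2 at an unadjusted p under 0.05. The share of all genes at that unadjusted limma p was not counted, so nothing is read from such counts here or below. The methods' test passed 1 of the 10 before and 0 after adjustment. The median log2 difference of the 10 genes was 0.07, against 0.01 over all genes. Hmga2, a chromatin protein that can induce Snail and Twist factors, had the smallest p of the list (log2 difference -0.32, limma adjusted p = 0.194). Twist2, the closest relative of Twist1, read 4.44, 4.83 and 3.79 in Hsf4-null and 3.71, 3.64 and 3.76 in wild-type lenses (difference 0.65, limma adjusted p = 0.249). Hsf4-null array 3 lay 0.03 above the highest wild-type value, far below the other Hsf4-null arrays. Of 11 measured genes of epithelial adhesion, limma also called 0, with 3 at an unadjusted p under 0.05, and the methods' test passed 1 before and 0 after adjustment. E-cadherin, Cdh1, the classic target of the Snail and Twist factors and named here after its values were seen, read 9.73, 9.94 and 10.07 in Hsf4-null and 10.04, 10.02 and 10.33 in wild-type lenses, so the groups overlap. Dsp, the desmosomal plaque protein desmoplakin, had a difference of 0.44 (limma adjusted p = 0.129), and Epcam 0.59 (limma adjusted p = 0.255), both at low intensities.

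Acta2 (chromosome 19, 34240336 to 34255585), alpha smooth muscle actin, is the protein by which myofibroblasts, pericytes and smooth muscle cells are usually recognized. Its brighter probe set, 1416454_s_at, read 7.997, 8.22 and 7.23 in Hsf4-null lenses, against 7.18, 6.69 and 6.42 in wild-type lenses. Hsf4-null array 3 and wild-type array 1 nearly touch, with 0.05 between them. Means were 7.82 ± 0.52 in Hsf4-null and 6.77 ± 0.39 in wild-type lenses (SD, n = 3 each), a log2 difference of 1.05 (standard error 0.28), or 2.07-fold. A difference of this size was not past the threshold at the spread of these arrays. The suffix s marks probes shared by several transcripts. The other probe set, 1456658_at, read 3.85, 3.80 and 3.86 in Hsf4-null and 3.65, 3.76 and 3.99 in wild-type lenses, near the bottom of the scale, and showed a difference of 0.04. The 2 probe sets of Acta2 therefore disagree.

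None of 16 other contractile and cytoskeletal genes passed limma, with 6 at an unadjusted p under 0.05, and the methods' test passed 4 before and 0 after adjustment. In 4 of them, Tagln, Cnn2, Myl9 and Actn1, every Hsf4-null array was above every wild-type array, as in 10.1% of all genes. In 2, Cald1 (-0.42) and Tpm2 (-0.28), every one was below, as in 11.5% of all genes. These names were taken after their values were seen. Tagln, the smooth muscle protein transgelin, read 6.22, 6.19 and 6.08 in Hsf4-null and 5.70, 5.19 and 4.50 in wild-type lenses (difference 1.03, standard error 0.27, limma adjusted p = 0.109). The Hsf4-null arrays are tight while the wild-type arrays spread widely. Actn1, a non-muscle alpha-actinin that bundles stress fibers, had a difference of 0.50 (standard error 0.13, limma adjusted p = 0.121).

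Fn1 (chromosome 1, 71585473 to 71653280), fibronectin, is a matrix glycoprotein deposited early by cells in EMT. Its brighter probe set read 6.96, 6.70 and 7.39 in Hsf4-null and 6.92, 6.63 and 6.45 in wild-type lenses. The groups overlap, with a difference of 0.35 (standard error 0.20), and the dim probe set gave 0.31 with overlapping groups. Of 12 measured partners of fibronectin, integrins, syndecans and other matrix receptors, limma called 1 lower and 0 higher, and the methods' test passed 3 before and 0 after adjustment. That gene was Cd44, the hyaluronan receptor, which fell by 1.47 in log2 units (standard error 0.16, limma adjusted p = 0.00317). It read 7.73, 7.33 and 7.13 in Hsf4-null lenses, against 8.75, 9.01 and 8.85 in wild-type lenses, which is opposite in direction to Ccn1, Twist1 and Tgfbi. Sdc4, a heparan sulfate proteoglycan of focal adhesions, had a difference of 0.29 (limma adjusted p = 0.218).

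Tgfbi (chromosome 13, 56609586 to 56639359), a secreted matrix protein named for its induction by TGF-beta, had 4 probe sets. The brightest, 1448123_s_at, read 7.26, 7.28 and 6.86 in Hsf4-null lenses, against 6.13, 6.02 and 5.24 in wild-type lenses. Each Hsf4-null array lay above each wild-type array, and array 3 was the lowest of its genotype in both groups. Means were 7.14 ± 0.24 in Hsf4-null and 5.79 ± 0.49 in wild-type lenses (SD, n = 3 each), a log2 difference of 1.34 (standard error 0.24), or 2.53-fold. This set was past the threshold, and the call was lost when Hsf4-null array 1, 2 or 3 or wild-type array 2 was left out, at differences between 1.27 and 1.48. The other 3 probe sets lie below the median of all means and differed by 0.93 (1415871_at), 0.42 (1456250_x_at) and 0.23 (1437463_x_at), none past the threshold. Of these, 1415871_at read 6.07, 5.93 and 5.10 in Hsf4-null and 5.25, 4.87 and 4.17 in wild-type lenses, where Hsf4-null array 3 falls among the wild-type values. The 4 sets agree on the direction and not on its size.

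**Figure D2:**
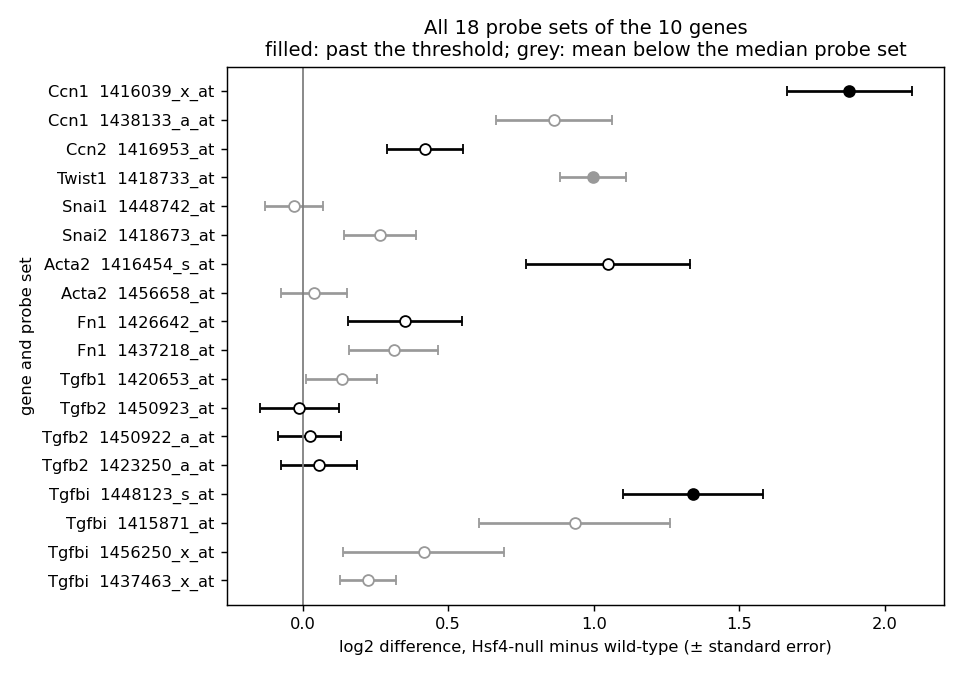
Log2 difference, Hsf4-null minus wild-type, with its standard error (horizontal axis) for each of the 18 probe sets of the 10 genes. Filled points are past the limma threshold and grey points have a mean below the median probe set; 16 of the 18 lie above 0, and probe sets of Acta2 and of Tgfbi differ widely in size.

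The ligands themselves gave differences close to 0. Tgfb2 (chromosome 1, 186622787 to 186709697), a TGF-beta isoform of the eye, read 11.63, 11.48 and 11.81 in Hsf4-null and 11.86, 11.59 and 11.50 in wild-type lenses on its brightest probe set. The groups cover the same range, and the 3 probe sets of the gene differed by -0.01, 0.02 and 0.06, with standard errors of 0.14, 0.11 and 0.13. Tgfb1 (chromosome 7, 25687002 to 25705077), the isoform of platelets and macrophages, read 3.67, 4.03 and 3.95 in Hsf4-null and 3.74, 3.84 and 3.67 in wild-type lenses. It lies low on the scale with overlapping groups, at a difference of 0.13 (standard error 0.12). A change in a low transcript could go unseen there. Among 10 other ligands of the family, which include BMPs, activins and growth differentiation factors, limma called 0, with 1 at an unadjusted p under 0.05, and the methods' test passed 0 before and after adjustment. The smallest p was that of Inhbb, an activin subunit (difference -0.27, limma adjusted p = 0.314), followed by Gdf11 (0.25, limma adjusted p = 0.492). Their median difference was 0.18.

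Among receptors and Smads 1 gene passed, Smad1, and it fell. Of 12 measured receptors limma called 0, with 2 at an unadjusted p under 0.05, and the methods' test passed 4 before and 0 after adjustment. Bmpr1a, a type I receptor for BMPs, read 9.89, 10.05 and 9.84 in Hsf4-null and 10.40, 10.34 and 10.26 in wild-type lenses (difference -0.41, standard error 0.10, limma adjusted p = 0.0977). Tgfbr1, the type I receptor for TGF-beta, had a difference of -0.23 (limma adjusted p = 0.29). Of 6 Smads, 1 fell and 5 did not pass, and the methods' test passed 2 before and 0 after adjustment. Smad1, which carries the signal of BMP receptors, fell by 0.78 (standard error 0.13, limma adjusted p = 0.0183), at 9.67, 9.65 and 9.95 in Hsf4-null lenses against 10.41, 10.52 and 10.68 in wild-type lenses. Without Hsf4-null array 1 or 2 or wild-type array 2 or 3 it was not called, at differences of -0.79 to -0.71. Smad4, the partner shared by both branches, had a difference of -0.23 (limma adjusted p = 0.329). Of 17 measured inhibitors and storage proteins limma called 0, with 3 at an unadjusted p under 0.05, and the methods' test passed 1 before and 0 after adjustment. The smallest adjusted p-values of that list were those of the secreted antagonists Fst (-0.25, limma adjusted p = 0.277) and Nog (-0.30, limma adjusted p = 0.306), both dim.

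Genes listed as targets of TGF-beta moved in both directions. Of 16 measured, 1 rose, 2 fell and 13 did not pass, with a median difference of 0.05, and the methods' test passed 4 before and 0 after adjustment. Col1a1, a chain of type I collagen, rose by 1.89 (standard error 0.31, limma adjusted p = 0.0201), or 3.71-fold. Its log2 intensities were 9.07, 9.18 and 9.55 in Hsf4-null lenses, against 6.81, 8.12 and 7.20 in wild-type lenses, and wild-type array 2 stands above the other two. Its call was lost without any 1 of the Hsf4-null arrays or without wild-type array 3, at differences of 1.75 to 1.99. Other collagen genes of the list did not pass, and are named after their values were seen. They were Col1a2 (0.07, limma adjusted p = 0.963), Col3a1 (0.17, limma adjusted p = 0.865) and Col4a1 (-0.15, limma adjusted p = 0.511). Timp3, an inhibitor of matrix metalloproteinases, fell by 0.79 (standard error 0.11, limma adjusted p = 0.00909), at 10.03, 10.004 and 10.09 in Hsf4-null lenses against 10.71, 10.79 and 10.998 in wild-type lenses. Loxl1, an elastin cross-linking enzyme, fell by 0.54 (standard error 0.09, limma adjusted p = 0.0273), at 8.57, 8.64 and 8.72 in Hsf4-null lenses against 9.13, 9.17 and 9.25 in wild-type lenses, and was not called once any 1 of the 6 arrays was left out, at differences of -0.58 to -0.51. Vim, the intermediate filament protein that lens fibers and mesenchyme both contain, named here after its values were seen, had a difference of -0.21 (limma adjusted p = 0.388).

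Among YAP, TAZ and TEAD genes, which share Ccn1 and Ccn2 as well-known targets, limma called 0 of 14 measured, with 6 at an unadjusted p under 0.05, and the methods' test passed 2 before and 0 after adjustment. Axl, a receptor tyrosine kinase and a known YAP target, read 6.93, 6.44 and 6.65 in Hsf4-null and 6.13, 5.998 and 5.33 in wild-type lenses (difference 0.85, standard error 0.22, limma adjusted p = 0.11). Lats1, a kinase that restrains YAP, had a difference of -0.68 (limma adjusted p = 0.159) at low intensities. The median log2 difference of the 14 genes was -0.09, with 5 above 0. Groups were apart in 1 gene on the higher side (Axl) and 5 on the lower, Lats1 among them, beside 10.1% and 11.5% of all genes. Over all 11 pathway lists, 127 of 136 genes were measured, 2 rose, 4 fell and 121 did not pass. That is 4.72%, where 2.88% of all genes passed, 0.775% higher and 2.11% lower. The median log2 difference of the 127 genes was -0.01, with 63 above 0.

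**Figure D3:**
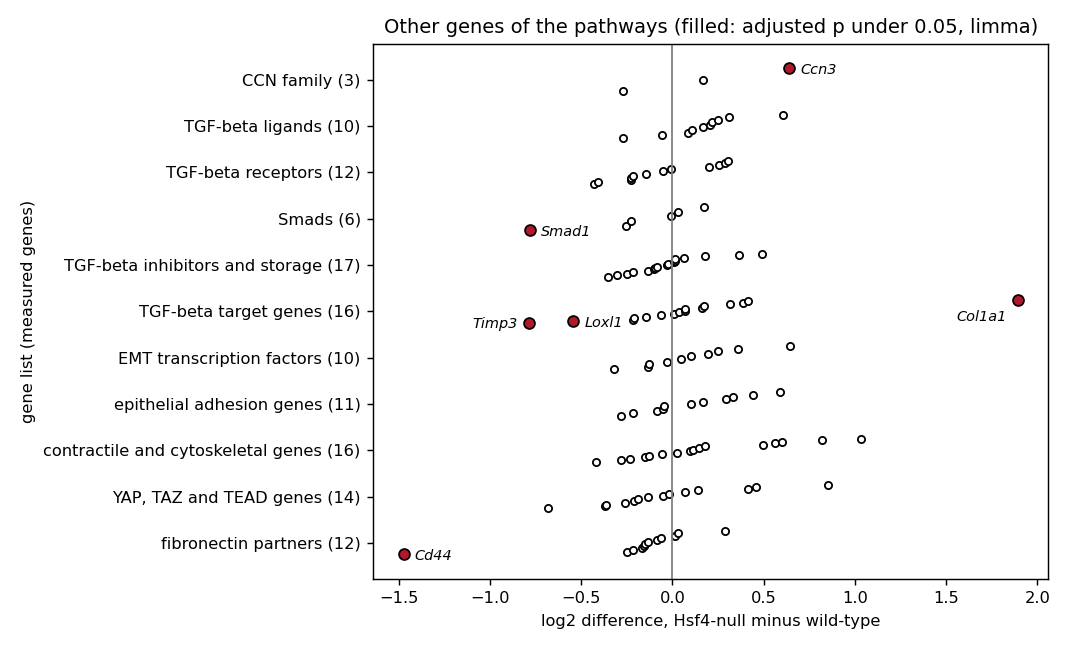
Log2 difference, Hsf4-null minus wild-type (horizontal axis), of each measured gene in 11 lists of pathway genes other than the 10 members, with the number measured in brackets. Filled points passed limma at an adjusted p under 0.05: Ccn3 and Col1a1 were higher, and Smad1, Timp3, Loxl1 and Cd44 were lower, in Hsf4-null lenses.

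Acta2, Twist1, Tgfbi and Ccn1 are also known from cells outside the lens epithelium and fibers, so the markers of such cells were measured on the same arrays. All 6 measured fiber markers and 6 of 7 epithelial markers lay above the median of all probe sets. The 6 fiber markers summed to between 67956.3 and 73778.4 in Hsf4-null lenses and between 72367.7 and 74748.3 in wild-type lenses, in linear intensity, and the 7 epithelial markers to between 22833.9 and 24447 in Hsf4-null lenses and between 22330.5 and 23730.9 in wild-type lenses. None of these 13 passed limma, with 1 at an unadjusted p under 0.05. That 1 was Foxe3, the epithelial marker below the median. It read 3.825, 3.82 and 3.75 in Hsf4-null and 4.17, 4.15 and 4.23 in wild-type lenses (difference -0.38, limma adjusted p = 0.0808). The 7 epithelial markers had a median difference of -0.07, with 2 above 0. Of 65 measured markers of other cell types, 1 rose, 0 fell and 64 did not pass. The called share was 1.54%, where 2.88% of all genes passed. At an unadjusted p under 0.05 there were 18, a level whose share over all genes was not counted. The gene that rose was Col1a1 again. The 65 markers had a median log2 difference of 0.27, with 49 above 0. All genes had a median of 0.01, and 50.5% of all probe sets had a difference above 0.

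The macrophage list was above 0 in 12 of its 12 genes, where 50.5% of all probe sets were. Its median difference was 0.51, with 0 called by limma (5 at an unadjusted p under 0.05). Its summed intensity was 1659.2, 939.6 and 1415.3 in Hsf4-null lenses and 1227.8, 1157.3 and 506.5 in wild-type lenses, so the sums overlap. Mrc1, the mannose receptor and the marker of highest mean in that list, had a difference of 0.50 (limma adjusted p = 0.642). Every Hsf4-null array was above every wild-type array in 10.1% of all genes, and every one was below in 11.5%. Of the 12 genes of this list, every one was above in 4 genes and below in 0. Among them was Lyz2, lysozyme, named after its values were seen, at 7.98, 6.66 and 7.02 in Hsf4-null and 6.28, 5.53 and 4.80 in wild-type lenses (difference 1.68, standard error 0.43, limma adjusted p = 0.103). It was called when each array was centred on its median. The vascular endothelium list summed to between 1655.1 and 1802.2 in Hsf4-null and between 1231.8 and 1580.3 in wild-type lenses, with 0 of 10 called (4 at an unadjusted p under 0.05). Its marker of highest mean, Tek, the angiopoietin receptor, differed by 0.11 (limma adjusted p = 0.74). The vascular list had a median difference of 0.33, with 8 of 10 genes above 0. Groups were apart in 3 of its genes on the higher side and 0 on the lower, beside the 10.1% and 11.5% of all genes. The pericyte and smooth muscle list summed to between 5442.8 and 5772.5 in Hsf4-null and between 3345.3 and 5181.4 in wild-type lenses, with 0 of 8 called (3 at an unadjusted p under 0.05). Most of that sum was Rgs5, a pericyte gene, at a difference of 0.38 (limma adjusted p = 0.337). The genes of that list did not run together, with a median difference of 0.07 and 4 of 8 above 0. Groups were apart in 2 genes on the higher side (Rgs5 and Tagln) and 2 on the lower (Abcc9 and Des), beside the 10.1% and 11.5% of all genes. Abcc9, a potassium channel subunit of pericytes, named after its values were seen, read 5.18, 5.28 and 5.75 in Hsf4-null and 7.18, 5.88 and 6.60 in wild-type lenses (difference -1.15, standard error 0.31, limma adjusted p = 0.124). The sums of the vascular list, and of the pericyte list through Rgs5, do not overlap between the genotypes and are higher in the Hsf4-null lenses. The part that vessels, pericytes or macrophages have in the values of Ccn1, Twist1, Acta2 and Tgfbi was not tested.

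The mesenchyme list went the other way in its sum, at 4656.3 to 5182 in Hsf4-null and 5337.1 to 5796.5 in wild-type lenses. The sum was led by Ogn, the proteoglycan osteoglycin, at a difference of -0.51 (limma adjusted p = 0.085), although Col1a1 of the same list rose. Of its 13 measured genes, 1 was called and 8 had a difference above 0, at a median of 0.07. Groups were apart in 1 gene on the higher side (Col1a1) and 1 on the lower (Ogn), beside 10.1% and 11.5% of all genes. The pigment cell list overlapped, at 3584.6 to 4900.9 in Hsf4-null and 3064.9 to 4168.1 in wild-type lenses, with 0 of 7 called (2 at an unadjusted p under 0.05) and a median difference of 0.64, with 6 of 7 above 0. Mitf, its marker of highest mean, had a difference of 0.03 (limma adjusted p = 0.932), while the melanin synthesis genes Tyrp1 (1.30, limma adjusted p = 0.232) and Dct (1.30, limma adjusted p = 0.432) and the melanosome gene Pmel (1.27, limma adjusted p = 0.233), named after their values were seen, had larger ones with overlapping groups. The retina list also overlapped and varied most within a genotype, between 175.1 and 936 in Hsf4-null and 188 and 592.6 in wild-type lenses. Of its 7 genes, 0 were called and 0 were at an unadjusted p under 0.05. Its median difference was 0.43, with 7 of 7 above 0, where 50.5% of all probe sets were. Nefl, the neurofilament light chain and its marker of highest mean, differed by 0.89 (limma adjusted p = 0.57). All 6 corneal and surface ectoderm markers and both measured blood markers lay below the median of all probe sets, with 0 called by limma and 1 of each list at an unadjusted p under 0.05. Krt5, a basal keratin, differed by -0.25 (limma adjusted p = 0.542) and Alas2, an enzyme of heme synthesis in red cells, by 0.61 (limma adjusted p = 0.297). No marker is listed at 0, since RMA intensities have a floor above it.

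**Figure D4:**
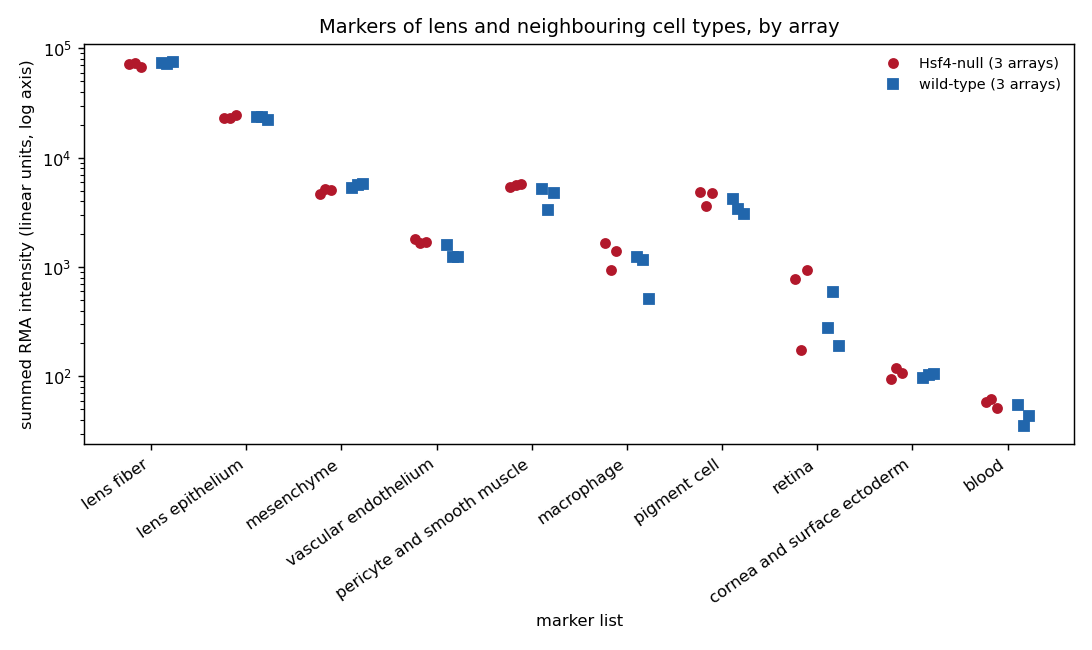
Summed linear RMA intensity (vertical log axis) of the marker genes of the lens and of neighboring cell types, on each of the 3 Hsf4-null (red circles) and 3 wild-type arrays (blue squares). The sums of vascular endothelium and of pericyte and smooth muscle markers are higher on every Hsf4-null array than on any wild-type array. The mesenchyme sum, led by Ogn, is lower on every Hsf4-null array, although 8 of the 13 genes of that list had a difference above 0. Lens fiber and lens epithelium sums overlap.

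Arrays correlated at 0.991 to 0.994 within a genotype and at 0.982 to 0.990 between genotypes. By 1 of its 3 probe sets, Xist, expressed from the inactive X chromosome of females, was high on 1 array of each genotype, at 10.09 on Hsf4-null array 1 and 10.69 on wild-type array 1, and at most 3.87 on the others. The Y-linked gene Eif2s3y was high on Hsf4-null array 2 and on wild-type arrays 2 and 3, at 10.28 or more. Hsf4-null array 3 was low for both, at 3.79 and 3.20. Without that array, the log2 differences were 1.80 for Ccn1, 0.97 for Twist1, 1.48 for Tgfbi and 1.34 for Acta2. Wild-type array 3 was the lowest wild-type array for Tgfbi and Acta2. With only that array left out, the differences were 1.91 for Ccn1, 0.96 for Twist1, 1.06 for Tgfbi and 0.88 for Acta2.

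For a description of which genes ran most alike with these members over the 6 arrays, log2 values were compared by Pearson's r with those of other genes at or above the median intensity. Nearest to Ccn1 among 6888 genes were Pdk1, a pyruvate dehydrogenase kinase (r = 0.998), Eif2b5, a subunit of a translation initiation factor (r = 0.994), and Pawr, a pro-apoptotic protein (r = 0.992). Nearest to Twist1 among 6889 genes were Ddx19b, an RNA helicase (r = 0.993), Kdelr2, a retention receptor of the endoplasmic reticulum (r = 0.992), and Cd200, a membrane glycoprotein (r = 0.992). With 6 arrays in 2 separate genotypes, such values mainly follow the difference between the genotypes, and genes with small differences, such as Kdelr2 at 0.07, can rank as high as Cd200 at 1.10.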

How the data were processed

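The authors hybridized amplified cDNA to Affymetrix mouse arrays and normalized them by RMA (background correction, quantile normalization and a summary of each probe set). The deposited values are RMA intensities on a linear scale, 1 per probe set and array; the software, and which arrays entered that step together, are not stated in the labels or methods read here.

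Log2 was taken of the deposited intensity values. After 64 array controls of 22690 probe sets were left out, 22626 entered a limma fit of the 2 groups (version 3.58.1, under R 4.3.3, by lmFit and eBayes with neither block nor filter), with calls at a Benjamini-Hochberg adjusted p under 0.05. The main design departs from the methods' t-test with SAM: the t-test was an alternative and SAM was not run. Array medians were 5.22 to 5.38 on the log2 scale, and the number of arrays limits the precision. Probe sets with 1 symbol numbered 20380, with several 691 and unnamed 1555, and gene identifiers gave the current RefSeq symbol for 20351. A gene other than a member was represented by its probe set of highest mean. Probe sets or genes are called dim or low where their mean over the 6 arrays is below the median of 5.30.

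The 10 members and all lists were chosen with earlier results of these data known. Named genes are the members with every probe set, the called genes of each pathway list (up to 3 in each direction) or else its 2 smallest adjusted p-values, the called gene and the gene of highest mean in lists of other cell types, and the 3 genes nearest in pattern to Ccn1 and Twist1. Groups came from the labels. The limma fit was tested on simulated data. Alternatives were the t-test, array weights, trended and robust variance, a replicate block, median centring, quantile normalization done again, and fits without dim probe sets or without each array. The methods say no more than biological triplicates, so p-values measure the spread between these samples, which may in part be technical.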

Additional observations from a re-analysis of the deposited data

How the results depend on the processing

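The test, the block, the variance model and the filter leave a member's difference as it is. With either normalization, array weights or an array left out, the difference of the brightest probe set ranged from 1.65 to 2.07 for Ccn1, 0.93 to 1.09 for Twist1, 1.06 to 1.51 for Tgfbi, 0.85 to 1.34 for Acta2 and 0.35 to 0.54 for Ccn2. The reported counts of 602 probe sets, 3 member probe sets, 6 pathway genes and 1 marker of other cells became 2912, 7, 23 and 11 under the methods' t-test at an unadjusted p under 0.05, and 85, 0, 0 and 0 after Benjamini-Hochberg adjustment of it. Markers of other cells called were 2 with trended and robust variance and 2 with median centring. Without dim probe sets Twist1 and Ccn3 were not among those tested.

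Leaving out 1 array gave 321 to 562 probe sets, 2 to 3 of them members, 2 to 7 pathway genes and 0 to 4 markers of other cells. The lowest count, 321, came without Hsf4-null array 3, and 335 came without wild-type array 2. Cd44 and Timp3 were called whichever array was left out. The calls of Tgfbi, Col1a1, Smad1 and Ccn3 were lost without some of the 6 arrays, and that of Loxl1 without any 1 of them, where fewer samples were fitted. Arrays share only a number across the genotypes: deviations from the group means correlated at 0.252, -0.206 and -0.081 between same-numbered arrays. With the replicate block 382 probe sets, 4 of them members, 4 pathway genes and 2 markers of other cells (Col1a1 and Lyz2) were called. The cause of these changes was not tested.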
